A study of Arabidopsis thaliana with 24 samples.

Results

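Estradiol (EST) and the cytokinin 6-benzylaminopurine (BAP) were given to Arabidopsis roots for 24 h singly and together, and genes were sought whose response to the pair differed from the sum of the separate responses. For each gene the interaction term was the EST effect in the presence of BAP minus the EST effect in its absence, both as log2 fold changes, so that a term of 0 means that the separate changes add up on the log2 scale. The 12 libraries of 24 h were used of the 24 in the series, in groups of 3: EST + BAP (5 µM EST with 1 µM BAP), BAP (1 µM), EST (5 µM) and DMSO, the solvent control. All groups had the same homozygous pANT:XVE>>axr3-1-YFP background and the same age, 9 d at transfer, and the main root was taken as a 1.5 cm segment lying 0.5 to 2 cm below the junction with the hypocotyl. The 4 h libraries, from a separate round of the same 4 treatments, were used only to set the interaction at 4 h beside that at 24 h. Genes with an edgeR adjusted p of 0.05 or less were called, which gave 305 of 21734 genes (1.40%), 213 with a positive term (0.980%) and 92 with a negative one (0.423%).

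Auxin is read in the nucleus through Aux/IAA repressors, which are degraded when auxin binds its receptor and thereby release the ARF transcription factors. AXR3 is an Aux/IAA gene, and axr3-1 is a dominant, stabilized form that keeps auxin-responsive genes repressed. XVE is an estradiol-activated transcription factor, here driven by the promoter of ANT, a gene active in cambial cells, so that EST switches on axr3-1-YFP where ANT is expressed. Cytokinin acts through a phosphorelay of histidine kinases and B-type response regulators, with A-type regulators as rapid targets, and it promotes the cell divisions of the root cambium, the lateral meristem that makes xylem and phloem. The model has limits that apply to each value here. The induced product comes from 1 line, XVE is made only where the ANT promoter is active and ANT itself responded to both agents, a wild-type line treated with EST was not analysed here, and AXR3 counts hold both transgene and endogenous transcripts. The segments are bulk tissue, in which fewer cells of a type and less RNA per cell cannot be told apart.

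Library totals at 24 h ranged over 14514022 to 40759829 estimated counts. Nuclear counts other than ribosomal RNA were 6001669 in DMSO replicate 1 and at least 15748246 in each other library. Ribosomal RNA took 54.1% of the counts of DMSO replicate 1 and 32.5% of those of BAP replicate 1, against 3.94% to 16.1% in the other 10 libraries. With both of these libraries left out together the test called 124 genes, 103 of them among the 305, and every one of the 305 kept its sign and an unadjusted p under 0.05. Xylem and cambium markers were detected in all 12 libraries, while markers of the root apical meristem summed to at most 1.99 counts scaled to CPM (reads of a gene relative to the scaled library total). Expression levels below are CPM after TMM scaling, not corrected for gene length, means are given ± SD over the 3 libraries of a group, and positions refer to TAIR10.1.

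Positive terms outnumbered negative ones among the called genes, and they were also larger, with a median of 0.87 against -0.70 and 81 against 28 genes at a size of 1 or more. Over all genes tested the median term was 0.02, 53.1% were positive, and 3450 had an unadjusted p under 0.05. BAP had the lowest of the 4 group means in 129 of the 213 genes with a positive term and the highest in 66 of the 92 with a negative one. Among all 21734 genes tested, BAP was lowest in 8224 and highest in 7813. In the direct comparisons, with an edgeR adjusted p of 0.05 or less and a size of at least 0.5 required, EST + BAP was above BAP in 123 of the 213 positive genes and below it in 40, where the background shares over all genes were 11.7% and 11.6%. Of the 92 negative genes, 60 were lower and 11 higher in EST + BAP than in BAP. EST lowered 80 and raised 38 of the positive genes relative to DMSO, against backgrounds of 9.43% and 6.54%, and BAP lowered 117 and raised 37 of them, against 17.1% and 17.6%. BAP raised 76 of the negative genes and lowered 1. EST + BAP was above EST in 88 and below it in 54 of the positive genes, against 16.5% and 13.7% of all genes (30.1% in either direction). These counts describe the shape of the response, since the same libraries enter the interaction and the direct comparisons. The genes nearest to the threshold were MCM4, AT3G13000 and MVP1 just inside it (edgeR adjusted p of 0.0498 each) and AT5G40140, AT1G29980 and FMO GS-OX4 just outside (edgeR adjusted p = 0.0501, 0.0502 and 0.0503).

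**Figure D1:**
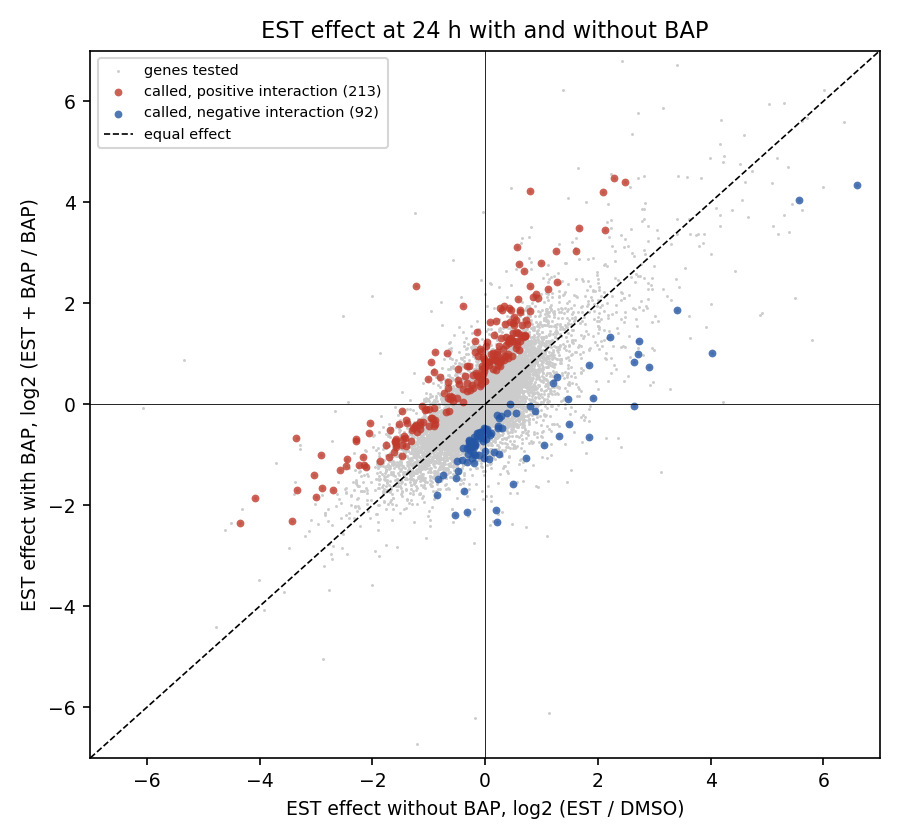
EST effect at 24 h in the presence of BAP (vertical, log2 of EST + BAP over BAP) against the effect in its absence (horizontal, log2 of EST over DMSO), 1 point per gene tested. Red points, with a positive interaction term (213), lie above the dashed line of equal effect and blue points, with a negative term (92), lie below it; 1 called gene lies beyond the axes.

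The direction of a term depends on the scale on which effects are expected to add. On the linear scale of mean CPM, 174 of the 213 positive and 87 of the 92 negative genes kept the sign of their term, as did 18507 of all 21734 genes tested. The other 39 positive and 5 negative genes departed from additivity in opposite directions on the log2 and the linear scale.

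The called genes were sorted by a log2 size of 0.5 in the EST and BAP changes relative to DMSO and by the direction of the interaction. The sorting is a description with no test, because the DMSO libraries enter the interaction and both changes. In 122 genes BAP alone moved and the interaction ran against it, the term being positive in 70 and negative in 52. For these 70 genes the median BAP change was -0.43 in the presence of EST and -1.31 in its absence, and for the 52 it was 0.40 in the presence of EST and 1.08 in its absence. In 39 genes EST alone moved and the interaction ran against it, 34 of them with a positive term, whose median EST change was -0.42 with BAP and -1.39 without it.

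The agents moved 79 genes in opposite directions, and the interaction went with EST in 42 of these and with BAP in 37. Of the 37, 36 had a positive term: the median BAP change was 1.73 with EST and 0.81 without it, and the median EST change was -0.68 with BAP and -1.55 without it. In 30 genes both agents moved expression the same way with less than the sum in combination, whereas 1 gene exceeded the sum. The combination alone moved 11 genes, 7 up and 4 down, the interaction ran with BAP in 1 gene and with EST in 4 where that agent alone moved, and 18 fitted none of these patterns.

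**Figure D2:**
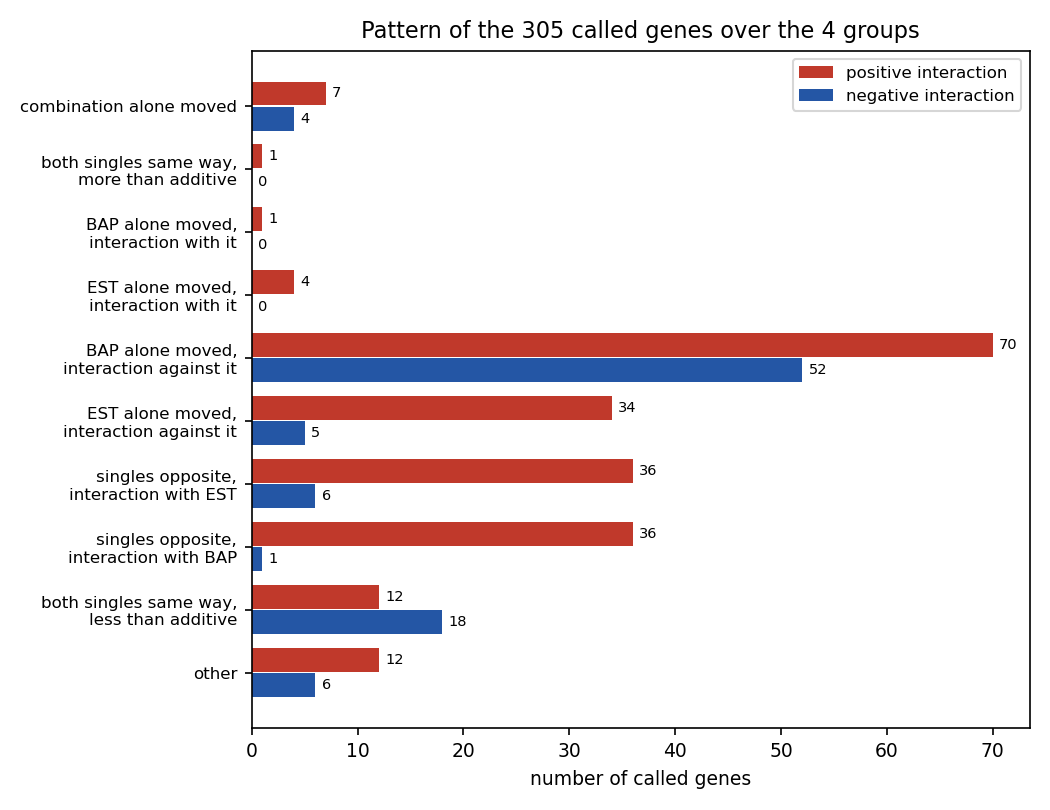
Number of called genes (horizontal) in each pattern over the 4 groups (vertical), with bars for positive (red) and negative (blue) interaction terms. The longest bars, 70 and 52 genes, are those in which BAP alone moved expression and the interaction ran against that change, and the bars for an interaction that ran with the only agent to move expression, or beyond the sum of both, hold 0 to 4 genes.

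AXR3 (AT1G04250, chromosome 1, 1136078 to 1138663, plus strand), the gene whose allele is induced, was itself called with a negative term. Its levels were 159, 140.3 and 129.6 CPM in EST + BAP, 205, 189 and 198 in BAP, 84.9, 77.8 and 80.9 in EST, and 66.4, 66.7 and 73.8 in DMSO. The 4 groups did not overlap, with BAP highest and DMSO lowest. AXR3 had an interaction of -0.70 (standard error 0.12, edgeR adjusted p = 0.0167). EST changed AXR3 by -0.46 with BAP and by 0.23 without it, the second of these missing the threshold (edgeR adjusted p = 0.0563). Over 22 alternative fits the AXR3 term was called in 20, the exceptions being the thinned libraries and the fit without DMSO and BAP replicate 1.

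ANT (AT4G37750, chromosome 4, 17739514 to 17742407, plus strand), the source of the promoter of the construct, encodes an AP2-type transcription factor of cambial cells. ANT had 83.0, 90.8 and 85.1 CPM in EST + BAP, 190.0, 223 and 229 in BAP, 12.4, 20.21 and 18.4 in EST, and 95.2, 88.1 and 120.3 in DMSO. BAP libraries were highest and EST libraries lowest, and the EST + BAP libraries overlapped with those of DMSO. An interaction of 1.27 followed for ANT (standard error 0.22, edgeR adjusted p = 0.0176). EST lowered ANT by 1.31 log2 units in the presence of BAP and by 2.58 in its absence. On the log2 scale the direction of the ANT term was thus opposite to that of AXR3. On the linear scale both terms were negative, -43.6 CPM for ANT and -66.3 CPM for AXR3.

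Of 21 cambial regulators tested, 3 were called, all with a positive term (ANT, HCA2 and PEAR1), and the list median was 0.15 with 17 positive terms. Over all genes tested, 0.980% had a positive call and 53.1% a positive term. HCA2 (AT5G62940, chromosome 5, 25256852 to 25258704, minus strand) and PEAR1 (AT2G37590, chromosome 2, 15769086 to 15770805, plus strand, DOF2.4 in the annotation) encode Dof transcription factors, the first known for cambial activity when overexpressed and the second for radial growth of the vascular cylinder. HCA2 levels were 6.53, 6.34 and 4.88 CPM in EST + BAP, 3.69, 3.64 and 4.11 in BAP, 1.48, 2.04 and 2.56 in EST, and 4.33, 3.42 and 3.81 in DMSO. EST + BAP was highest without overlap, EST was lowest, and BAP and DMSO overlapped. For HCA2 the term was 1.54 (standard error 0.27, edgeR adjusted p = 0.0168). PEAR1 averaged 1.92 ± 0.0875 CPM in EST + BAP, 4.06 ± 0.443 in BAP, 0.686 ± 0.199 in EST and 3.63 ± 0.760 in DMSO. Its interaction was 1.37 (standard error 0.29, edgeR adjusted p = 0.0403), a call kept in 2 of the 12 fits that leave out 1 library. Among the 9 genes tested of the TDIF-PXY pathway, in which a phloem-derived peptide maintains cambial stem cells through the receptor PXY, 1 was called, PXC1 (AT2G36570), a receptor-like kinase associated with secondary wall formation. PXC1 had 102, 106 and 109 CPM in EST + BAP, 226, 261 and 267 in BAP, 29.0, 35.5 and 33.6 in EST, and 129, 135 and 159.9 in DMSO. No groups overlapped, and the fall in EST was 1.25 log2 units with BAP and 2.12 without it. The interaction of PXC1 was 0.87 (standard error 0.14, edgeR adjusted p = 0.0156). On the linear scale the PXC1 term was negative (-36.8 CPM). The list median was 0.36, and PXY itself had a term of 0.55 that was not called.

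Single genes of the conducting tissues were called too, beside 1.40% of all genes tested. OPS (AT3G09070, chromosome 3, 2768641 to 2771375, minus strand), which acts in protophloem differentiation, was the only call among 11 phloem genes. It had 41.4, 38.5 and 42.5 CPM in EST + BAP, 52.1, 52.8 and 50.6 in BAP, 14.3, 15.1 and 15.1 in EST, and 31.6, 32.9 and 31.5 in DMSO, with no overlap between any groups. OPS had an interaction of 0.76 (standard error 0.089, edgeR adjusted p = 0.00280). XCP1 (AT4G35350), a peptidase of xylem vessel elements and the only call among 18 xylem and secondary wall genes, averaged 132 ± 5.87 CPM in EST + BAP, 72.5 ± 3.58 in BAP, 119 ± 15.4 in EST and 97.5 ± 2.90 in DMSO. The interaction of XCP1 was 0.58 (standard error 0.13, edgeR adjusted p = 0.0424), a call kept in 1 of the 12 fits that leave out 1 library. ARF4 (AT5G60450), an auxin response factor and the only call among 15, averaged 23.0 ± 1.62 CPM in EST + BAP, 21.0 ± 0.626 in BAP, 23.5 ± 2.24 in EST and 35.2 ± 3.99 in DMSO. Its EST effect was 0.14 with BAP and -0.59 without it, an interaction of 0.72 (standard error 0.13, edgeR adjusted p = 0.0260).

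The sums of the cell type markers fixed for the analysis stood as follows in the 12 libraries. Cambium markers (ANT, WOX4, PXY, LBD4, HB8 and KNAT1) summed to 324 to 364 CPM in EST + BAP, 525 to 626 in BAP, 184 to 199 in EST and 350.2 to 445 in DMSO. Of the 6, all had a positive term and 1 was called. Xylem markers summed to 525 to 550 CPM in EST + BAP, 312 to 358 in BAP, 450 to 589 in EST and 416 to 480 in DMSO, again with positive terms in all 10 and 1 called. The EST + BAP libraries thus lay above BAP for xylem and below it for cambium markers, without overlap. Phloem markers summed to 146 to 171 CPM in EST + BAP, 219 to 234 in BAP, 167 to 179 in EST and 281 to 311 in DMSO. Against this sum, SUC2 and PP2-A1 averaged 35.9 and 26.65 CPM in EST + BAP and 19.85 and 16.6 in BAP, while the other phloem markers were lower in EST + BAP than in BAP. Periderm markers summed to 607 to 688 CPM in EST + BAP, 339 to 519 in BAP, 284 to 494 in EST and 238 to 334 in DMSO, where EST + BAP was highest. Lateral root primordium markers summed to 27.8 to 32.5 CPM in EST + BAP, 32.5 to 40.9 in BAP, 11.65 to 13.95 in EST and 14.7 to 17.98 in DMSO. PLT3, PLT5 and PLT7 carried these sums and were higher in BAP than in DMSO. LBD16, LBD29 and PUCHI went the other way, with LBD16 at 0.174 CPM in BAP and 1.40 in DMSO. WOX5, RGF1 and PUCHI, defining markers of the root tip and of young primordia, were at 0 in 1, 3 and 1 of the 12 libraries. These sums moved with several of the gene groups described here, and their part in the interaction was not tested.

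On the log2 scale, terms of DNA replication genes were mostly positive. Of 19 tested, 4 were called, all positive (MCM3, MCM4, MCM5 and ETG1), against 0.980% of all genes, and 17 of the 19 terms were positive, with a median of 0.50. All 19 genes were higher in BAP than in DMSO and in EST + BAP than in EST, with medians of 1.63 for BAP in the presence of EST and 1.14 in its absence. EST lowered 12 of them with BAP (median -0.55) and 18 without it (median -1.04). The MCM2 to MCM7 proteins form the replicative helicase, and ETG1 is a replisome factor named as a target of E2F, the transcription factor family that switches on S-phase genes.

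MCM3 (AT5G46280, chromosome 5, 18769649 to 18773706, minus strand) had 28.4, 31.1 and 31.5 CPM in EST + BAP, 44.0, 50.2 and 47.1 in BAP, 7.54, 7.52 and 8.74 in EST, and 18.4, 20.9 and 24.1 in DMSO. The groups did not overlap, and EST + BAP lay between BAP and DMSO. An interaction of 0.80 followed for MCM3 (standard error 0.14, edgeR adjusted p = 0.0174). MCM5 (AT2G07690, chromosome 2, 3522984 to 3527500, minus strand) had 25.9, 26.9 and 28.3 CPM in EST + BAP, 36.8, 42.0 and 39.9 in BAP, 9.32, 9.75 and 9.54 in EST, and 20.3, 21.1 and 24.3 in DMSO, again without overlap. For MCM5 the term was 0.66 (standard error 0.11, edgeR adjusted p = 0.0167). On the linear scale the terms of MCM3 and MCM5 were negative, -3.565 and -0.105 CPM, as was that of MCM4, while that of ETG1 was positive, 2.74 CPM. ETG1 averaged 18.1 ± 1.77 CPM in EST + BAP, 23.1 ± 0.885 in BAP, 6.24 ± 0.209 in EST and 13.9 ± 1.01 in DMSO with an interaction of 0.81 (standard error 0.12, edgeR adjusted p = 0.0116), and MCM4 averaged 27.9 ± 1.92 CPM in EST + BAP, 38.9 ± 4.03 in BAP, 8.60 ± 0.470 in EST and 18.9 ± 2.73 in DMSO with an interaction of 0.67 (standard error 0.15, edgeR adjusted p = 0.0498). The call of MCM4 was lost in each of the 12 fits that leave out 1 library. With each library thinned to the depth of the shallowest, 0 genes of the list were called, and 2 were called without BAP replicate 3 and 1 without EST + BAP replicate 3.

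The E2F recognition letters TTTCCCGC or TTCCCGCC, which overlap each other by 7 letters, were searched on both strands from 250 bases before to 50 after each gene start. A match was found in 10 of the 19 replication genes (52.6%), in 9 of the 213 genes with a positive term (4.23%), in 0 of the 92 with a negative term and in 1.14% of 21487 promoters of genes tested. The 9 genes were EXPB3, ICU2, MCM3, MCM5, AT3G14890, POLA2, AT4G17760, FAS1 and ATIM. ICU2 and POLA2 encode subunits of DNA polymerase alpha and FAS1 a subunit of the chromatin assembly factor that follows replication. Of the 4 called replication genes, 2 had a match (MCM3 and MCM5), beside 10 of the 19 in the list. ETG1, despite its name as an E2F target, and MCM4 had 0 matches in the window. A match was thus no more frequent among the called replication genes than in their list. Promoters of the called helicase genes with a match are shown because they carry these letters close to the start. They are RefSeq sequence of TAIR10.1, 150 bases ending just before the gene start, with matches that lie whole in this stretch in capitals. MCM5 has a further TTCCCGCC that begins in the last 4 bases shown and runs past the start.
MCM5 promoter (chr2:3527501-3527650, minus strand): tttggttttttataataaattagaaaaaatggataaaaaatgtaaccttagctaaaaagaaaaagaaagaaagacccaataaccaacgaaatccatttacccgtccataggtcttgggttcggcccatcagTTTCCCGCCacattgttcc
MCM3 promoter (chr5:18773707-18773856, minus strand): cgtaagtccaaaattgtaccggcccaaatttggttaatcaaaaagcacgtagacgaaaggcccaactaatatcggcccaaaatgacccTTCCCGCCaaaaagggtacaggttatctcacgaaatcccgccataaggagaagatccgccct
A match describes letters in the window and not a bound site.

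The mitotic cell cycle list ran the other way from the replication list on the log2 scale. Of 23 genes, 4 had a positive term, the median was -0.40, and 1 gene was called, AUR1, a kinase of spindle and cell plate, with a negative term. All 23 were higher in BAP than in DMSO, with a median of 1.28 in the presence of EST and 1.65 in its absence, and EST lowered 20 with BAP (median -1.11) and 13 without it (median -0.71). AUR1 (AT4G32830) had 8.58, 9.59 and 9.80 CPM in EST + BAP, 16.4, 20.08 and 19.9 in BAP, 4.95, 4.23 and 5.06 in EST, and 4.85, 6.01 and 5.04 in DMSO. BAP was highest, EST + BAP came next without overlap, and EST and DMSO overlapped. The interaction of AUR1 was -0.83 (standard error 0.17, edgeR adjusted p = 0.0326), a call kept in 3 of the 12 fits that leave out 1 library. The core and linker histones, 45 genes, had a median of -0.19 and 0 calls in edgeR, with 15 at an unadjusted p under 0.05. Of 9 D-type cyclins, 0 were called in edgeR and 1 had an unadjusted p under 0.05, with a median of 0.13. The difference between the lists was not tested.

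Cytosolic ribosomal proteins are protein components of the translation machinery. The list was made by annotated product name, so a few members may be of organellar type or carry such a name without being ribosomal proteins. Of 273 tested, 24 were called, all negative, where 0.423% of all genes had a negative call, and 239 of the 273 terms were negative, with a median of -0.32. BAP raised 210 of them in the absence of EST, by a median of 0.94, and EST + BAP was above EST in 162, by a median of 0.61. EST lowered 180 of them with BAP (median -0.62) and 21 without it (median -0.28). The called terms were small, from -0.42 for AT1G27400 to -0.69 for AT1G56045. Their number depended on single libraries, with 1 to 19 called when any 1 of the 12 was left out and 3 without DMSO and BAP replicate 1 together, while the list median stayed between -0.37 and -0.28 in the fits without 1 library.

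AT3G08520 (chromosome 3, 2586001 to 2586343, plus strand), a gene of the L41 family, had 162, 168 and 151 CPM in EST + BAP, 236, 250.4 and 274 in BAP, 114, 106 and 109.8 in EST, and 117, 104 and 118 in DMSO. BAP was highest, EST + BAP lay between BAP and the other groups without overlap, and EST overlapped with DMSO. AT3G08520 had an interaction of -0.62 (standard error 0.12, edgeR adjusted p = 0.0260). AT3G02080 (chromosome 3, 363881 to 365376, minus strand), of the S19e family, had 138, 133 and 144 CPM in EST + BAP, 236, 256 and 225 in BAP, 109.8, 102 and 112 in EST, and 119, 129 and 119.8 in DMSO. Its 4 groups did not overlap, and EST was lowest. An interaction of -0.61 followed for AT3G02080 (standard error 0.10, edgeR adjusted p = 0.0167). Ribosomal proteins are encoded by small families of similar genes in Arabidopsis, and at 90% identity over at least 50% of the gene no other copy of the 24 was found. The search compared whole gene spans with introns, so it cannot exclude reads shared between genes alike only in their coding sequence. UBQ6, called with a negative term as well, encodes a ubiquitin fused to a ribosomal protein, and its best copy had 91.9% identity.

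Promoters of ribosomal protein genes are known for the telo box and site II elements. These letters, AAACCCTA for the telo box and TGGGCC or TGGGCT for site II, were searched after the called genes had been seen, on both strands of the same window. The telo box was present in 20 of the 24 called ribosomal genes (83.3%), in 37.4% of the 273, in 31.5% of the 92 negative genes, in 3.76% of the 213 positive genes and in 5.52% of all promoters. Site II letters were present in 20 of the 24 (83.3%), 65.6% of the 273, 41.3% of the negative genes, 16.0% of the positive genes and 24.6% of all promoters. The called ribosomal genes were chosen for their term, so the shares are a description. More of the called ribosomal genes had the telo box after the start, as in AT3G02560, AT5G02450 and EMB3010 (positions 3, 33 and 24), than before it. Examples are shown from the called genes with both elements before the start. They are the 150 bases ending just before it in RefSeq TAIR10.1, with matches on either strand in capitals.
AT3G08520 promoter (chr3:2585851-2586000, plus strand): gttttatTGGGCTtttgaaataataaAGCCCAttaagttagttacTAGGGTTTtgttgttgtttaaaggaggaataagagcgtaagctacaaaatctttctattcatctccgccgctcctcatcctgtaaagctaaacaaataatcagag
AT2G44860 promoter (chr2:18502563-18502712, minus strand): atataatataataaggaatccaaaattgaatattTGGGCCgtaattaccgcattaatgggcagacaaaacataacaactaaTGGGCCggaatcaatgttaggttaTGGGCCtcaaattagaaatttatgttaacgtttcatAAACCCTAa
AT5G27700 promoter (chr5:9808514-9808663, minus strand): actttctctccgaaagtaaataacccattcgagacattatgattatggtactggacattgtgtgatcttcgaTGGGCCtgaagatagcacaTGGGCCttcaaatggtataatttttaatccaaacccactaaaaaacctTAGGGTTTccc
For the other motifs searched, the shares were as follows: the auxin response element TGTCTC or TGTCGG (19.2%, 22.8% and 18.7% in positive, negative and all genes), the B-type ARR core AGATCT or AGATTT (98 of 213 positive genes, 40 of 92 negative genes and 42.1% of all genes), the W-box TTGACC or TTGACT (35.7%, 30.4% and 32.9%), the G-box CACGTG (6.10%, 9.78% and 8.50%) and the mitosis-specific activator element CCAACGG (1.88%, 4.35% and 2.12%).

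**Figure D3:**
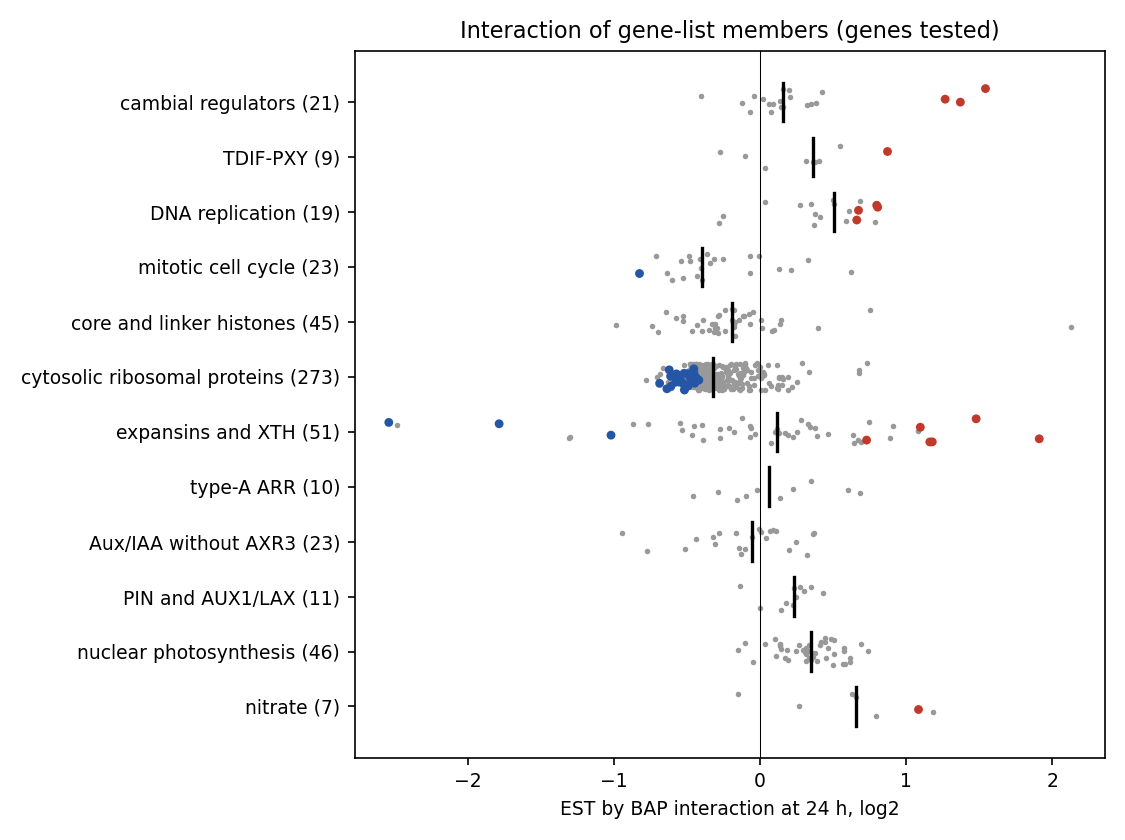
EST by BAP interaction at 24 h (log2, horizontal) of each tested member of 12 gene lists (vertical, number tested in parentheses), with called genes in red (positive) or blue (negative), other genes in grey and the list median as a black bar. The median was 0.50 for DNA replication, -0.40 for the mitotic cell cycle and -0.32 for cytosolic ribosomal proteins, beside 0.02 for all genes tested.

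Expansins, which loosen the cell wall, and XTH enzymes, which cut and rejoin xyloglucan, made up 9 called genes of 51 tested (17.6%), against 1.40% of all genes. The list as a whole had 28 positive and 23 negative terms, with a median of 0.12. The called expansins, EXPA1, EXPA4, EXPA6, EXPA15 and EXPB3, all had positive terms, as did XTH20, and XTH16, XTH24 and XTH32 had negative ones. EXPB3 (AT4G28250, chromosome 4, 13999625 to 14002124, minus strand) had 456, 433 and 424 CPM in EST + BAP, 665, 595 and 693 in BAP, 129, 114 and 151 in EST, and 585, 489.8 and 561 in DMSO. The groups did not overlap, EST was far below the rest, and EST + BAP was between EST and DMSO. For EXPB3 the term was 1.48 (standard error 0.15, edgeR adjusted p = 0.00219). EXPA15 (AT2G03090, chromosome 2, 916806 to 918671, minus strand) showed the same order, with 194, 191 and 192 CPM in EST + BAP, 360.4, 365 and 428 in BAP, 22.9, 45.3 and 40.1 in EST, and 252, 264 and 298 in DMSO. The interaction of EXPA15 was 1.91 (standard error 0.26, edgeR adjusted p = 0.00654). The fall in EST was 1.00 log2 units with BAP and 2.91 without it for EXPA15, and 0.30 with BAP and 1.40 without it for EXPA4. EXPA4, EXPA6, EXPA15 and EXPB3 were called in each of 22 alternative fits.

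XTH32 (AT2G36870) had 26.4, 33.9 and 32.5 CPM in EST + BAP, 34.1, 33.1 and 34.8 in BAP, 45.3, 42.8 and 42.0 in EST, and 19.7, 25.5 and 24.1 in DMSO. EST was highest without overlap, EST + BAP overlapped with BAP, and DMSO was lowest. XTH32 had an interaction of -1.02 (standard error 0.14, edgeR adjusted p = 0.00809). Pectin lyase-like proteins, a family added after the called genes were seen, had 5 positive calls among 53 tested, where 0.980% of all genes had one. AT1G10640 led them, with 29.1, 26.4 and 33.6 CPM in EST + BAP, 46.1, 42.9 and 52.8 in BAP, 3.71, 1.72 and 2.82 in EST, and 27.5, 16.8 and 40.4 in DMSO. BAP was highest and EST lowest without overlap, EST + BAP overlapped with DMSO, and the interaction was 2.67 (standard error 0.40, edgeR adjusted p = 0.00918). AT4G24780 of this family averaged 791 ± 26.3 CPM in EST + BAP, 1266 ± 81.5 in BAP, 313 ± 33.0 in EST and 855 ± 134 in DMSO.

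Aquaporins, channels for water and small solutes, gave 2 calls of 32 tested, both negative, where 0.423% of all genes had a negative call. GAMMA-TIP (AT2G36830, chromosome 2, 15445294 to 15446621, plus strand) had 49.7, 33.8 and 29.7 CPM in EST + BAP, 91.0, 59.9 and 85.9 in BAP, 143, 102 and 128 in EST, and 79.5, 82.0 and 64.9 in DMSO. EST was highest and EST + BAP lowest without overlap, and BAP and DMSO overlapped. An interaction of -1.79 followed for GAMMA-TIP (standard error 0.28, edgeR adjusted p = 0.0121). PIP3 averaged 114 ± 16.9 CPM in EST + BAP, 285 ± 11.3 in BAP, 82.5 ± 14.8 in EST and 115 ± 6.23 in DMSO, with an interaction of -0.84 (standard error 0.18, edgeR adjusted p = 0.0362). The list median was 0.10.

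**Figure D4:**
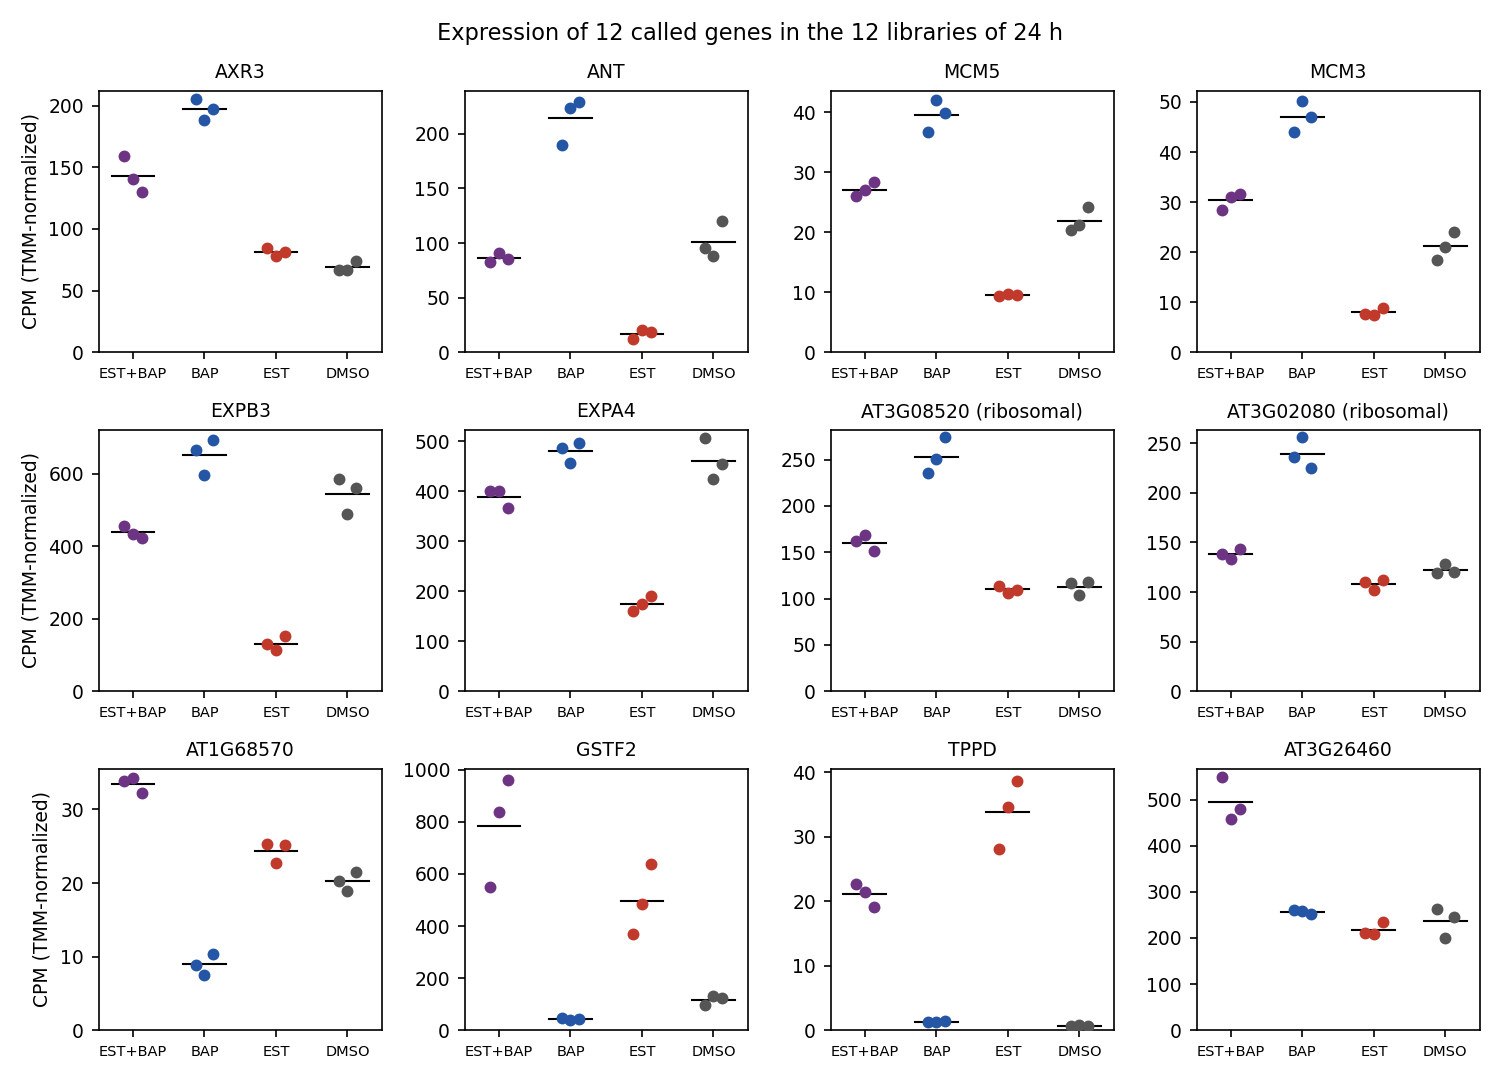
CPM after TMM scaling (vertical, linear axis from 0) of 12 called genes in the 12 libraries, with 1 point per library, the group mean as a black line, and the groups EST + BAP, BAP, EST and DMSO from left to right. EST + BAP lies between BAP and EST in ANT, MCM5, MCM3, EXPB3, EXPA4 and the 2 ribosomal genes, is highest in AT1G68570 and AT3G26460 without overlap, and is below EST in TPPD.

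The gene with the smallest p was AT1G68570 (chromosome 1, 25746697 to 25750291, plus strand), a member of the major facilitator superfamily of transporters. It had 33.9, 34.2 and 32.2 CPM in EST + BAP, 8.86, 7.56 and 10.4 in BAP, 25.3, 22.7 and 25.2 in EST, and 20.3, 18.9 and 21.5 in DMSO. EST + BAP was highest, BAP lowest, and no groups overlapped. For AT1G68570 the term was 1.64 (standard error 0.14, edgeR adjusted p = 0.000797). Its BAP change was 0.46 in the presence of EST and -1.18 in its absence, so the direction of the BAP effect differed. AT1G68570 overlaps an annotated gene on the opposite strand, from which its reads cannot be told apart if strand was not used in counting. The next gene, AT4G24340, of the phosphorylase superfamily, averaged 63.4 ± 7.17 CPM in EST + BAP, 17.4 ± 1.35 in BAP, 59.7 ± 3.74 in EST and 43.6 ± 1.63 in DMSO. Its EST effect was 1.86 with BAP and 0.46 without it, an interaction of 1.40 (standard error 0.13, edgeR adjusted p = 0.000797).

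Glucosinolate, sulfate transporter, NLR and glutathione S-transferase genes were listed after the called genes had been seen, so their counts and values are a description and support nothing about the families. The share of positive calls over all genes tested was 0.980%. Of 22 genes of aliphatic glucosinolate synthesis, sulfur-rich defence compounds made from methionine, 6 were called, all positive (IMD1, AT2G25450, CYP83A1, IPMI2, CYP79F2 and IPMI1). CYP83A1 (AT4G13770), a cytochrome P450 of the core pathway, had 8.29, 10.2 and 8.73 CPM in EST + BAP, 3.15, 3.37 and 2.28 in BAP, 31.7, 43.1 and 44.2 in EST, and 31.4, 44.3 and 34.9 in DMSO. BAP was lowest and EST + BAP next without overlap, and EST overlapped with DMSO. The interaction of CYP83A1 was 1.54 (standard error 0.25, edgeR adjusted p = 0.0132). The list median was -1.08 for BAP in the presence of EST and -1.83 in its absence. Of 12 sulfate transporters, 3 were called, all positive: SULTR1;2, which takes up sulfate at the root surface and averaged 218 ± 13.4 CPM in EST + BAP, 148 ± 29.6 in BAP, 713 ± 51.0 in EST and 914 ± 99.3 in DMSO, SULTR2;1 and SULTR4;2. NIR1 (AT2G15620), nitrite reductase and the only call among 7 nitrate genes, averaged 59.1 ± 4.55 CPM in EST + BAP, 60.4 ± 10.3 in BAP, 129 ± 14.2 in EST and 279 ± 54.2 in DMSO, with an interaction of 1.08 (standard error 0.21, edgeR adjusted p = 0.0260). GS2 (AT5G35630), the plastid glutamine synthetase, averaged 33.0 ± 1.59 CPM in EST + BAP, 21.4 ± 0.724 in BAP, 62.0 ± 3.89 in EST and 69.5 ± 3.93 in DMSO with an interaction of 0.79 (standard error 0.10, edgeR adjusted p = 0.00530).

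Of 143 genes for NLR proteins, intracellular immune receptors, 11 were called, all positive, and 122 of the 143 terms were positive (median 0.30). Over all genes tested, 0.980% had a positive call and 53.1% a positive term. RPP4 (AT4G16860), a receptor for downy mildew, had 27.5, 40.9 and 40.8 CPM in EST + BAP, 7.33, 7.64 and 6.44 in BAP, 61.3, 52.5 and 52.8 in EST, and 36.5, 27.1 and 33.5 in DMSO. EST was highest and BAP lowest without overlap, and EST + BAP overlapped with DMSO. RPP4 had an interaction of 1.55 (standard error 0.22, edgeR adjusted p = 0.00806). Its neighbours in the same cluster, SNC1 and RPP5, had terms of 0.61 and 0.64. Sequence shared within this family can split reads between copies, and AT1G58807, another of the 11, has a copy of 100.0% identity. The salicylic acid and defence list, fixed apart from these families, had 0 calls of 11 in edgeR, 3 at an unadjusted p under 0.05 and a median of 0.33.

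Of 53 glutathione S-transferases, detoxifying enzymes, 4 were called, all positive (GSTF2, GSTF7, GSTU1 and GSTU27), where 0.980% of all genes had a positive call. GSTF2 (AT4G02520, chromosome 4, 1110343 to 1112033, minus strand) had 549, 839.9 and 959 CPM in EST + BAP, 46, 40.7 and 41.3 in BAP, 368, 486 and 637 in EST, and 96.1, 129.7 and 124 in DMSO. EST + BAP overlapped with EST, both were above DMSO, and BAP was lowest. An interaction of 2.11 followed for GSTF2 (standard error 0.30, edgeR adjusted p = 0.00832). EST raised it in the presence and the absence of BAP. The terpene synthase TPS12 (AT4G13280) averaged 154 ± 12 CPM in EST + BAP, 65.8 ± 10.5 in BAP, 161 ± 2.82 in EST and 157 ± 10.5 in DMSO, BAP alone being lower, with an interaction of 1.19 (standard error 0.15, edgeR adjusted p = 0.00500).

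MIPS3 (AT5G10170, chromosome 5, 3187277 to 3190321, minus strand), an enzyme of inositol synthesis, had a negative term and opposite responses to the agents. It had 54.6, 54.4 and 58.7 CPM in EST + BAP, 189.5, 191 and 202 in BAP, 47.2, 40.7 and 44.6 in EST, and 71.1, 77.4 and 91.3 in DMSO. BAP was far above the rest, EST + BAP was below DMSO and EST was lowest, with no overlap. For MIPS3 the term was -0.94 (standard error 0.13, edgeR adjusted p = 0.00747). GPAT1 (AT1G06520), an acyltransferase of glycerolipid synthesis, averaged 16.5 ± 2.13 CPM in EST + BAP, 31.9 ± 0.783 in BAP, 19.8 ± 1.40 in EST and 18.1 ± 2.30 in DMSO. The BAP change was -0.25 with EST, which missed the threshold, and 0.84 without it, and the interaction was -1.10 (standard error 0.15, edgeR adjusted p = 0.00633).

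In the genes that both agents raised and the pair raised by less than the sum, the 18 with a negative term, the median rise over DMSO was 2.18 in EST + BAP, 1.90 in BAP and 2.07 in EST. TPPD (AT1G35910, chromosome 1, 13362962 to 13365172, minus strand), a trehalose-6-phosphate phosphatase, had 22.8, 21.4 and 19.1 CPM in EST + BAP, 1.23, 1.20 and 1.42 in BAP, 28.1, 34.7 and 38.7 in EST, and 0.656, 0.772 and 0.655 in DMSO. EST was highest, EST + BAP next, and the groups did not overlap. The interaction of TPPD was -1.53 (standard error 0.27, edgeR adjusted p = 0.0168). The EST effect was 4.04 with BAP and 5.57 without it. RTFL7 (AT3G55515), of the ROTUNDIFOLIA-like small peptides, averaged 64.7 ± 9.93 CPM in EST + BAP, 17.8 ± 2.25 in BAP, 29.9 ± 3.33 in EST and 2.63 ± 1.01 in DMSO, with EST effects of 1.86 with BAP and 3.41 without it. On the linear scale RTFL7 runs the other way, since EST + BAP exceeded the sum of the separate rises in CPM. SAUR9 (AT4G36110), a small auxin-up RNA and the only call among 40, was raised by EST but not called for BAP, and averaged 1.42 ± 0.227 CPM in EST + BAP, 0.868 ± 0.0819 in BAP, 5.01 ± 0.976 in EST and 0.672 ± 0.244 in DMSO, with an interaction of -2.17 (standard error 0.38, edgeR adjusted p = 0.0178). AT2G34510, annotated as a putative choice-of-anchor C domain protein, averaged 11.3 ± 1.01 CPM in EST + BAP, 10.6 ± 0.437 in BAP, 13.2 ± 1.30 in EST and 4.83 ± 0.532 in DMSO, so that either agent or both together gave about the same level above DMSO, with an interaction of -1.38 (standard error 0.16, edgeR adjusted p = 0.00270).

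Genes that moved in the combination alone were few. AT3G26460, of the polyketide cyclase and lipid transport superfamily, had 550.2, 457 and 481 CPM in EST + BAP, 261, 258 and 252 in BAP, 211, 208 and 234 in EST, and 264, 199.7 and 246 in DMSO. EST + BAP was highest without overlap, and DMSO overlapped with both BAP and EST. AT3G26460 had an interaction of 1.07 (standard error 0.15, edgeR adjusted p = 0.00806). XTH20 averaged 37.7 ± 2.02 CPM in EST + BAP, 23.2 ± 5.72 in BAP, 12.2 ± 2.63 in EST and 17.3 ± 1.44 in DMSO. Its interaction was 1.18 (standard error 0.24, edgeR adjusted p = 0.0335), a call kept in 3 of the 12 fits that leave out 1 library. The EST and BAP changes of XTH20, -0.48 and 0.44, ran in opposite directions and fell just under the size of 0.5 that counts as moved. ROXY2, a glutaredoxin, averaged 6.40 ± 0.625 CPM in EST + BAP, 2.69 ± 0.406 in BAP, 2.93 ± 0.223 in EST and 3.38 ± 0.519 in DMSO, with an interaction of 1.43 (standard error 0.22, edgeR adjusted p = 0.0121).

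The sole gene above the sum of like-directed responses was AT5G06730, a peroxidase. It had 252, 326 and 280.3 CPM in EST + BAP, 62.1, 64.5 and 63.0 in BAP, 39.4, 43.1 and 71.3 in EST, and 31.6, 22.3 and 29.1 in DMSO. EST + BAP was far above every other library, BAP and EST overlapped, and DMSO was lowest. An interaction of 1.27 followed for AT5G06730 (standard error 0.27, edgeR adjusted p = 0.0414). ANNAT2 (AT5G65020), an annexin, was the only gene raised by BAP alone whose term went the same way, averaging 427 ± 19.6 CPM in EST + BAP, 235 ± 7.18 in BAP, 163 ± 13.6 in EST and 163 ± 20.9 in DMSO, with an interaction of 0.86 (standard error 0.14, edgeR adjusted p = 0.0121).

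Several called values rest on uncertain reads. AT2G07741, with the largest term (11.8, standard error 2.27, edgeR adjusted p = 0.0261), had 143, 55.3 and 137 CPM in EST + BAP, 0.246, 0 and 0 in BAP, 0, 102 and 90.4 in EST, and 219, 131 and 126 in DMSO, but its whole sequence has a copy of 100.0% identity in the mitochondrial genome, and libraries of 1 group ranged down to 0. In all, 15 called genes have a copy of at least 90% identity over at least 50% of their length, among them AT5G39110, AT5G39120 and GER2 of the germin-like proteins and both TPS-CIN genes, and 65 overlap another gene on the opposite strand. TTG2, RBK2 and XTH16, with negative terms of -1.82, -2.29 and -2.54, were low, averaging 0.597 ± 0.156 CPM in EST + BAP, 2.56 ± 0.255 in BAP, 0.543 ± 0.0631 in EST and 0.675 ± 0.0499 in DMSO for TTG2.

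Lists of hormone genes had few calls. Of the 10 A-type ARR genes, 0 were called, with a median term of 0.06 and BAP changes of 1.66 with EST and 1.82 without it. Of the 23 Aux/IAA genes other than AXR3, 0 were called (median -0.06), and EST lowered 15 of them with BAP and 13 without it. The B-type ARR genes (7, median 0.03), cytokinin receptors and AHP (8, 0.22), cytokinin metabolism (21, 0.13), CRF (6, -0.01), PIN and AUX1/LAX (11, 0.24) and GH3 with lateral-root LBD genes (10, -0.08) had 0 calls each. In edgeR 0 calls in the A-type ARR list stands beside 1 gene at an unadjusted p under 0.05, beside 7 in the Aux/IAA list, 10 in cytokinin metabolism, 2 among receptors and AHP, 1 each in CRF, PIN and AUX1/LAX and GH3 with LBD, and 0 among B-type ARR genes. A missed threshold does not show that these genes respond additively.

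Nuclear photosynthesis genes had positive terms in 43 of 46 (median 0.35) with 0 calls and 12 at an unadjusted p under 0.05. BAP lowered 43 of them in the absence of EST and EST + BAP was below EST in 35, with medians of -0.73 in the presence of EST and -1.09 in its absence. The green tissue markers summed to 209 to 233 CPM in EST + BAP, 109 to 164 in BAP, 357 to 447 in EST and 309.8 to 365 in DMSO.

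At 4 h, edgeR called 0 of 21933 genes in the same interaction, with 893 at an unadjusted p under 0.05, and DESeq2 called 7. The 4 h terms of the genes called at 24 h were small, with a median of 0.08 for the 213 and -0.11 for the 92. They had the sign of the 24 h term in 135 of the 213 (63.4%) and 60 of the 92 (65.2%), against 55.1% of the 21423 genes tested at both times. DNA replication had a median of -0.35 at 4 h and 0.50 at 24 h, and ribosomal proteins -0.18 at 4 h and -0.32 at 24 h. AXR3 had 271, 295 and 330.0 CPM in EST + BAP, 172, 162 and 186 in BAP, 141, 178 and 185 in EST, and 54.1, 50.3 and 50.9 in DMSO at 4 h, and its difference between the times was not called.

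**Figure D5:**
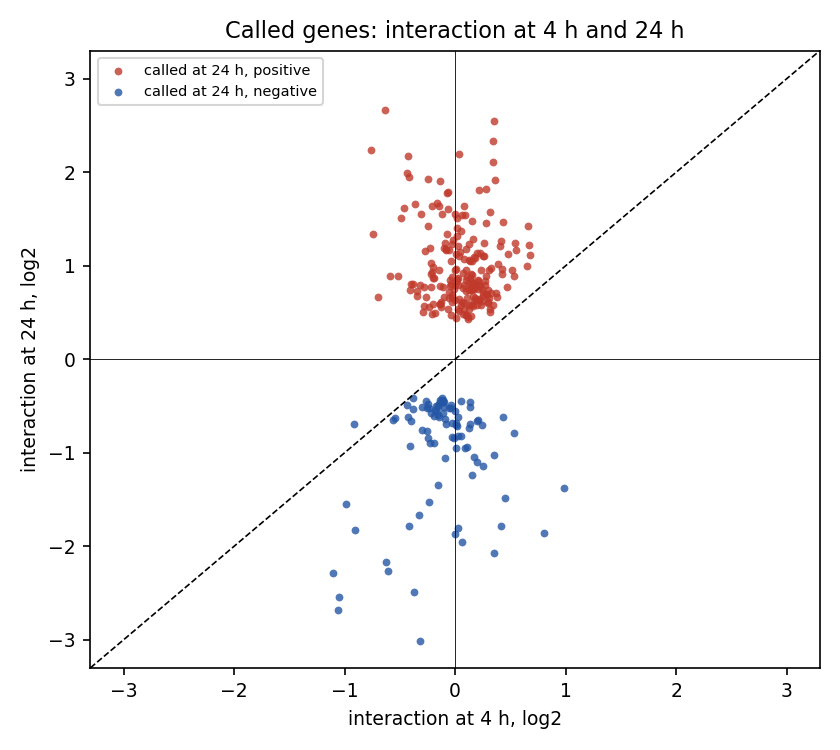
Interaction at 24 h (vertical, log2) against interaction at 4 h (horizontal, log2) for genes called at 24 h, positive in red and negative in blue, with the dashed line marking equal terms; 4 called genes lie beyond the axes. The points spread along the vertical axis, with 4 h medians of 0.08 and -0.11.

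The interaction at 24 h minus that at 4 h was tested in all 24 libraries and passed in 1 of 22446 genes (0.00446%), AT3G15680, with 1682 at an unadjusted p under 0.05. AT3G15680 encodes a zinc finger protein of the Ran-binding type and was also called at 24 h. At 24 h it had 5.30, 3.70 and 2.88 CPM in EST + BAP, 21.4, 18.6 and 21.7 in BAP, 0.754, 0.590 and 0.638 in EST, and 12.3, 12.8 and 15.6 in DMSO. At 4 h it had 4.21, 3.51 and 3.22 CPM in EST + BAP, 16.4, 15.8 and 15.7 in BAP, 2.93, 2.799 and 2.60 in EST, and 8.25, 8.37 and 10.6 in DMSO. No groups overlapped at 24 h; at 4 h EST + BAP was above EST without overlap by a small step, and BAP was highest at both times. The 24 h term was 1.98 and the 4 h term -0.43, a difference of 2.41 (standard error 0.34, edgeR adjusted p = 0.0173). On the linear scale of mean CPM its term was negative at both times, so the change of sign holds on the log2 scale only. The times were separate experiments, so time and experiment cannot be told apart. The count was 0 without DMSO replicate 3, EST replicate 2 or EST replicate 3 of 24 h.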

How the data were processed

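RNA was sequenced from root segments of 24 libraries, of which the 12 of 24 h carry the results and the 12 of 4 h serve the comparison of times. Per the labels and the study's methods, ribosomal RNA was depleted with Ribo-Zero, libraries were stranded, reads were checked with FastQC, trimmed with Trimmomatic 0.36 and quantified with Kallisto 0.43.0 on the AtRTD2 transcriptome. The authors deposited 1 table of gene-wise estimated counts, which hold whole numbers and were not normalized, so that depth differs between libraries. The strand option of Kallisto is not given in the sources used here. Of 34212 genes in the table, 33437 matched RefSeq TAIR10.1 by locus, from which names, positions and sequences were taken. AtRTD2 gene models can differ from it.

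Counts were tested in R 4.3.3 with the quasi-likelihood test of edgeR 4.0.16 after TMM scaling and a low-count filter (minimum count 10), with no covariate, all 4 groups in a 2 by 2 model. Benjamini-Hochberg adjustment covered all genes tested, and 0.05 was the threshold. The EST and BAP effects were called at a size of at least 0.5 as well. The difference between times was tested in 1 model over all 24 libraries. The procedure was tested on simulated data. Per the study's methods the experiment was done 3 times at each time point, while the labels do not say whether equal replicate numbers mark the same repeat. The 12 same-group pairs differed by more than counting error (chi-square per degree of freedom 7.38 to 45.3). Sequence copies were sought with blastn 2.17.0 over whole gene spans, introns included. Alternatives were RLE scaling, no filter, a filter at 1 CPM, DESeq2 1.42.0, limma 3.58.1 with voom, a replicate block, all 24 libraries in 1 fit, no organelle or ribosomal RNA genes, thinning, other thresholds and leaving out libraries; the joint omission of DMSO and BAP replicate 1, the thinning and the fit of all 24 libraries were chosen after seeing the data.

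The members and gene lists were chosen with earlier results of these data known, and the added families, the telo box and site II motifs after the called genes were seen. Genes named were AXR3, the 12 with the smallest p in each direction, the 5 with the largest terms in each direction, called members of the lists and up to 3 per pattern, given a mean of at least 10 counts in the highest group. Other genes named were chosen after their values were seen: those of added families, those with an E2F match, those next to the threshold, UBQ6 for its copy and AT3G15680 as the sole call between times. Ribosomal genes were listed by annotated name, organelle genes by locus prefix.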

Additional observations from a re-analysis of the deposited data

Results flagged for a closer look

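AT3G15680, a Ran-binding type zinc finger gene, stood out because its EST by BAP interaction differed between the 2 times by a test of that difference. The 24 h term minus the 4 h term was 2.41 (standard error 0.34, edgeR adjusted p = 0.0173), with terms of 1.98 at 24 h and -0.43 at 4 h. These are log2 terms, and on the linear scale of mean CPM the term was negative at both times. The 2 times were separate experiments, and their part in the difference cannot be told apart from that of time.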

How the results depend on the processing

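All 305 genes called at 24 h kept the sign of their term in each of 22 alternative fits in which they were tested, but the number called moved. DESeq2 called 902 (556 positive, 346 negative), all 24 libraries in 1 fit 153 (117 and 36), and thinning to the shallowest library 148 (110 and 38). Without DMSO and BAP replicate 1 together the count was 124 (96 and 28). A size of at least 1 gave 109 (81 and 28), and an adjusted p of at most 0.1 gave 897 (563 and 334). Leaving out 1 library gave 99 (EST + BAP replicate 3) to 244 (EST replicate 1), of which 79 to 171 were positive and 17 (BAP replicate 3) to 73 negative, and 9 of the 12 such fits moved the total by over 1.5 times. Of the 305, 97 to 189 were called again in those fits. At 4 h DESeq2 called 7 (6 and 1). For the difference between times it called 100 (80 and 20), and leaving out 1 library gave 0 to 4, all positive.

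Replicate numbers were not used as pairs, since no label ties them to a shared batch and not every same-numbered pair correlated above 0.1. Deviations of same-numbered libraries correlated at -0.0612 to 0.256, positive in 14 of 18 pairs, and above 0.1 in all 3 pairs only for DMSO with BAP. Every library correlated best with its own number in 2 of 6 pairs of groups (DMSO with BAP and with EST + BAP), a hint of pairing from the data that the design does not settle. With the replicate block, 512 genes were called at 24 h (355 positive, 157 negative), 22 for the difference between times (19 and 3) and 7 in DNA replication.

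Of the lists, ribosomal protein calls numbered 84 in DESeq2, 1 with all 24 libraries, 10 when thinned, 3 without DMSO and BAP replicate 1, and 1 to 19 without 1 library. DNA replication had 8 in DESeq2, 0 when thinned and 1 to 4 without 1 library. Expansins and XTH had 5 without DMSO and BAP replicate 1 and 5 to 8 without 1 library, cambial regulators 1 and 2 to 3, and the mitotic list 2 in DESeq2, 0 when thinned and 0 to 1 without 1 library. Raising the size for the patterns to 1 left 162 of 305 genes in their pattern. The causes of these shifts were not tested. Of 89 named genes, 22 were called in each of the 22 alternative fits in which they were tested, 37 in each fit without 1 library, and none reversed. DMSO replicate 1 held the fewest nuclear counts.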
